A study of Mus musculus with 16 samples.

Results

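The genes described here are those of the CD3 chains of the T cell receptor and of T cell surface proteins, followed across group 2 innate lymphoid cells (ILC2s) of the mouse. The list names 10 genes (Cd3d, Cd3e, Cd3g, Cd247, Cd4, Cd8a, Cd8b1, Cd5, Cd2 and Cd7), and 9 of them have a probe set with 1 gene symbol, out of 22180 genes measured in this way. Cd247, which encodes the zeta chain, has no such probe set and was not analysed here. Each of the 9 genes has 1 probe set, so no choice between probe sets was needed.

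Total RNA of ILC2s was measured on 16 single-colour Affymetrix arrays in 6 groups. Lung ILC2s came from C57BL/6J mice that were naive (n = 2 arrays) or had received the cytokine IL-33 by the nose, with 3 arrays each at day 4 and week 2 and 2 arrays at 4 months. The draining node of the lung, the mediastinal lymph node (mLN), gave ILC2s after the same treatment at day 4 and at week 2, with 3 arrays each, and the labels of these arrays give no strain. The arrays are labelled as biological replicates, there is no group of untreated mLN cells, and the sources used here do not give the markers by which the cells were isolated. All values are log2 signals as deposited, so a difference of 1 is a doubling.

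ILC2s are lymphocytes of the tissues that make type 2 cytokines such as IL-5 and IL-13 and that carry no rearranged antigen receptor at their surface. In T cells the antigen receptor reaches the surface only together with the CD3 gamma, delta and epsilon chains and the zeta chain, whose cytoplasmic tails hold the tyrosine motifs (ITAMs) that recruit the kinase ZAP-70. CD4 and CD8 are the co-receptors that bind MHC class II and class I, while CD2, CD5 and CD7 are surface proteins shared by many T cells and by some other lymphocytes.

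The 12 listed marker genes of ILC2s were all measured. Their mean signal lay between 8.81 and 9.50 on every array, and Gata3, the transcription factor that ILC2s require, lay between 8.82 and 9.69. Rora, another of the 12, lay between 6.00 and 6.87. Thy1, a surface marker of ILC2s and T cells, lay between 9.63 and 10.99. No array holds another cell type, and Thy1 is shared with T cells. These signals therefore cannot show whether T cells were present among the cells. Arrays of the naive and 4-month groups had a narrower signal range, with interquartile ranges of 2.05 to 2.47 against 2.85 to 3.07 on the other 12 arrays. Every comparison against naive lung uses the same 2 naive arrays, so these comparisons are not independent of each other.

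In naive lung ILC2s, 8 of the 9 genes had their highest group mean, the exception being Cd3g. Over all genes, 23.8% had their highest group mean in naive lung. For Cd3d, Cd3e, Cd8a, Cd8b1, Cd2 and Cd7, both naive arrays lay above all 14 other arrays, which was the case for 3.67% of all genes. At day 4 after IL-33, 7 of the 9 genes were lower than in naive lung and 0 were higher at an adjusted p under 0.05 in limma, where 16.6% of all genes were called and 5.73% were called lower. At week 2, 6 were lower and 0 higher, against 9.62% called and 2.87% called lower among all genes. At 4 months, 5 were lower and 0 higher, against 1.97% called and 1.25% called lower. The median change of the 9 genes was -1.92 at day 4, -2.49 at week 2 and -2.19 at 4 months, while the median over all genes was -0.06, -0.04 and -0.02. In these bulk samples, fewer cells of a type and less RNA per cell cannot be told apart.

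**Figure D1:**
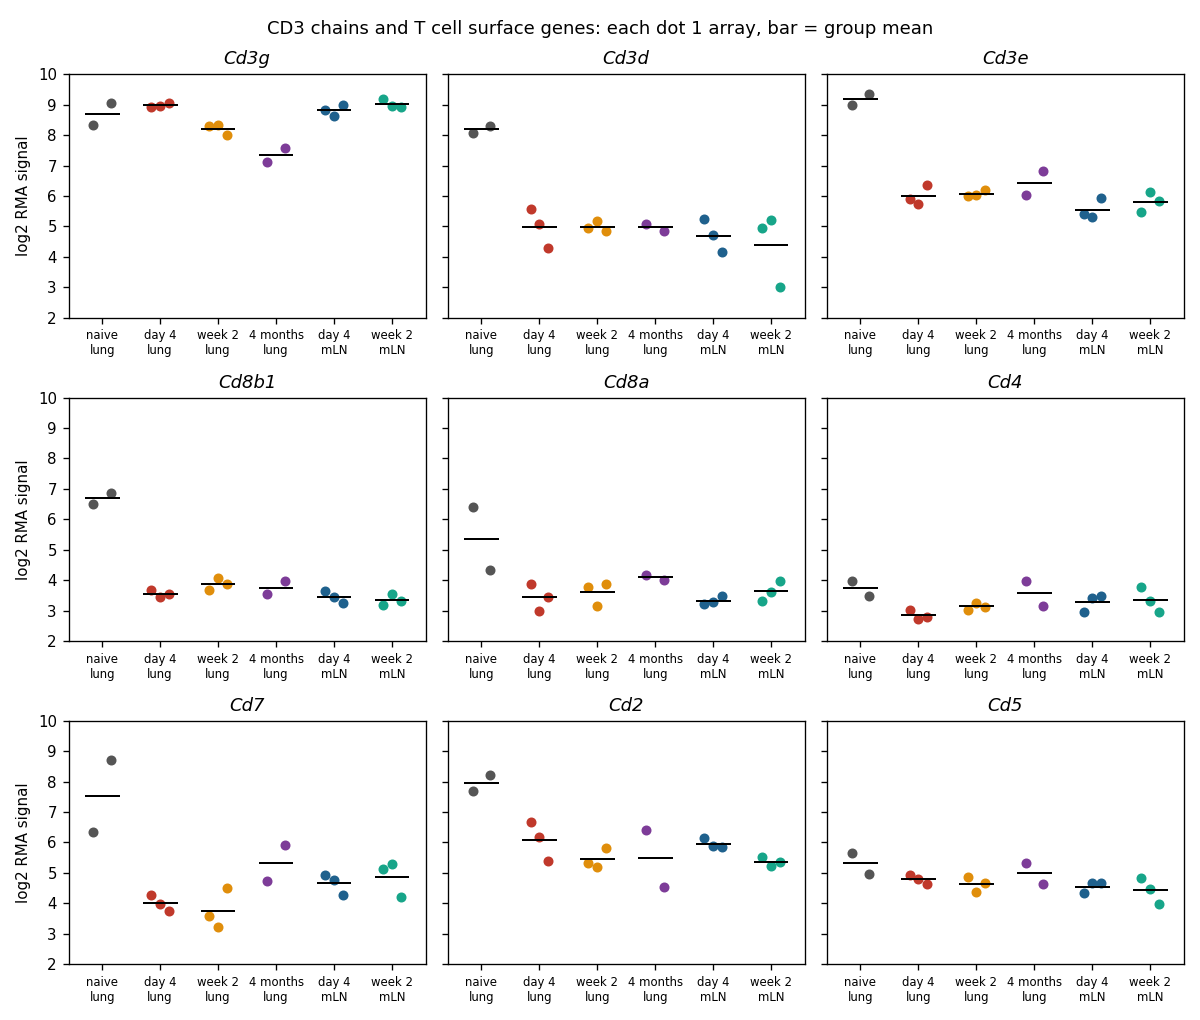
Log2 signal (vertical axis) of the 9 measured genes on each of the 16 arrays, by group (horizontal axis), with dots for arrays and bars for group means. Cd3d, Cd3e and Cd8b1 are high on both naive lung arrays and low on the other 14, while Cd3g stays between 7.10 and 9.18 on every array and is lowest at 4 months.

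The CD3 delta and epsilon chains are encoded by Cd3d and Cd3e. Cd3d had a log2 signal of 8.09 and 8.32 on the naive arrays. It was 5.59, 5.08 and 4.28 at day 4, 4.95, 5.17 and 4.85 at week 2, and 5.10 and 4.85 at 4 months in the lung. In the mLN it was 5.25, 4.70 and 4.15 at day 4 and 4.94, 5.21 and 3.02 at week 2. Both naive arrays thus stood apart from a common low range, in which 1 mLN array at week 2 was lowest. In each group of 3 arrays, the array numbered replicate 3 had the lowest Cd3d. Against naive lung, Cd3d fell by 3.22 ± 0.49 (limma SE) at day 4, a 9.31-fold lower signal (adjusted p = 4.53e-04). It fell by 3.21 ± 0.49 at week 2 (adjusted p = 0.00107) and its change was -3.23 ± 0.54 at 4 months (adjusted p = 0.00699).

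Cd3e had a log2 signal of 8.99 and 9.37 on the naive arrays. It was 5.90, 5.75 and 6.37 at day 4, 5.99, 6.03 and 6.20 at week 2, and 6.02 and 6.81 at 4 months in the lung. The mLN values were 5.42, 5.30 and 5.93 at day 4 and 5.47, 6.13 and 5.83 at week 2. The naive arrays were again clear of all others, and the 5 groups after IL-33 overlapped with their neighbours in the order of the means. Cd3e fell by 3.17 ± 0.27 at day 4 (8.99-fold lower, adjusted p = 3.06e-06), by 3.10 ± 0.27 at week 2 (adjusted p = 1.17e-05) and by 2.76 ± 0.30 at 4 months (adjusted p = 3.58e-04, or 0.236 when only the 2 groups compared were fitted).

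The gamma chain gene Cd3g did not share this pattern. Its log2 signal was 8.33 and 9.05 on the naive arrays. It was 8.94, 8.95 and 9.06 at day 4, 8.31, 8.34 and 7.99 at week 2, and 7.10 and 7.60 at 4 months in the lung. On the mLN arrays it was 8.82, 8.64 and 8.99 at day 4 and 9.18, 8.96 and 8.94 at week 2. The naive values fell among those of the treated groups, and both 4-month arrays were below all others. The difference from naive lung was 0.29 ± 0.22 at day 4 (adjusted p = 0.393) and -0.48 ± 0.22 at week 2 (adjusted p = 0.189), neither of which passed. With quantile normalization repeated on the deposited values, the week 2 difference was -0.77 and passed (adjusted p = 0.0333), and the day 4 difference was -0.07. The 502 genes within 0.5 log2 units of the mean of Cd3g in the mLN were taken as genes of similar signal. Against naive lung their median change was 0.46 at day 4, 0.40 at week 2 (quartiles of 0.13 and 0.63) and -0.13 at 4 months. Their part in the Cd3g differences was not tested. At 4 months Cd3g was lower than in naive lung by 1.34 ± 0.24 on the log2 scale, or 2.53-fold (adjusted p = 0.0112). This Cd3g call was lost without naive replicate 2 (-0.98, adjusted p = 0.0547) and without 4-month replicate 1 (-1.10, adjusted p = 0.0704).

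Array weights in limma, which lower the influence of noisy arrays, left the counts of called genes against naive lung at 6 at day 4, 6 at week 2 and 2 at 4 months. Over all 22180 genes, 1627, 728 and 4 were called with these weights, against 3677, 2134 and 436 without them. The 2 genes still called at 4 months were Cd3e (adjusted p = 0.0445) and Cd8b1 (adjusted p = 0.00229), while Cd3d (0.335), Cd3g (0.349) and Cd2 (0.335) no longer passed. When only the naive and 4-month arrays were fitted, 0 of the 9 genes were called by limma at 4 months, and the adjusted p was 0.102 for Cd3d, 0.140 for Cd8b1, 0.236 for Cd3e, 0.747 for Cd2 and 0.821 for Cd3g.

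The 3 CD3 chains were then set against each other on each array. Signals of different probe sets cannot be compared in absolute terms, so only the change of their difference between arrays was read. Cd3g minus Cd3d was 0.24 and 0.74 on the naive arrays. It was 3.36, 3.86 and 4.78 at day 4, 3.36, 3.17 and 3.14 at week 2, and 2.01 and 2.74 at 4 months in the lung. In the mLN it was 3.57, 3.93 and 4.85 at day 4 and 4.25, 3.75 and 5.92 at week 2. The difference was thus smaller on both naive arrays than on any other array.

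Cd3g minus Cd3e was -0.66 and -0.31 on the naive arrays. It was 3.04, 3.19 and 2.69 at day 4, 2.32, 2.31 and 1.79 at week 2, and 1.08 and 0.78 at 4 months in the lung. The mLN values were 3.40, 3.34 and 3.06 at day 4 and 3.71, 2.83 and 3.11 at week 2. Here the 4 lung groups did not overlap one another, with the order day 4, week 2, 4 months and naive from high to low.

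Averaged over arrays, the naive lung values were lower than those of the 8 other lung arrays by 2.81 for Cd3g minus Cd3d, by 2.64 for Cd3g minus Cd3e, and by 2.72 for Cd3g minus the mean of both. Each gave p = 0.0222 in an exact two-sided permutation test, the smallest p that the 45 splits of 2 against 8 arrays allow (0.0222 adjusted over the 3 tests). Against all 14 other arrays the differences were -3.27, -3.10 and -3.19, each with an exact permutation p of 0.00833, the smallest of 120 splits. By contrast, Cd3d minus Cd3e was -0.90 and -1.05 in naive lung, within the range of -2.81 to -0.17 on the others. Its mean differed between naive and other lung arrays by 0.18 (exact permutation p = 0.756), less than the spread of the other lung arrays. A p of this size does not show that the pair moved alike. The 3 tests with Cd3g share its values, and the members were chosen with earlier results of these data known. Both naive arrays had already been seen above all others for Cd3d and Cd3e and not for Cd3g. The p-values of these tests therefore add no separate support.

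**Figure D2:**
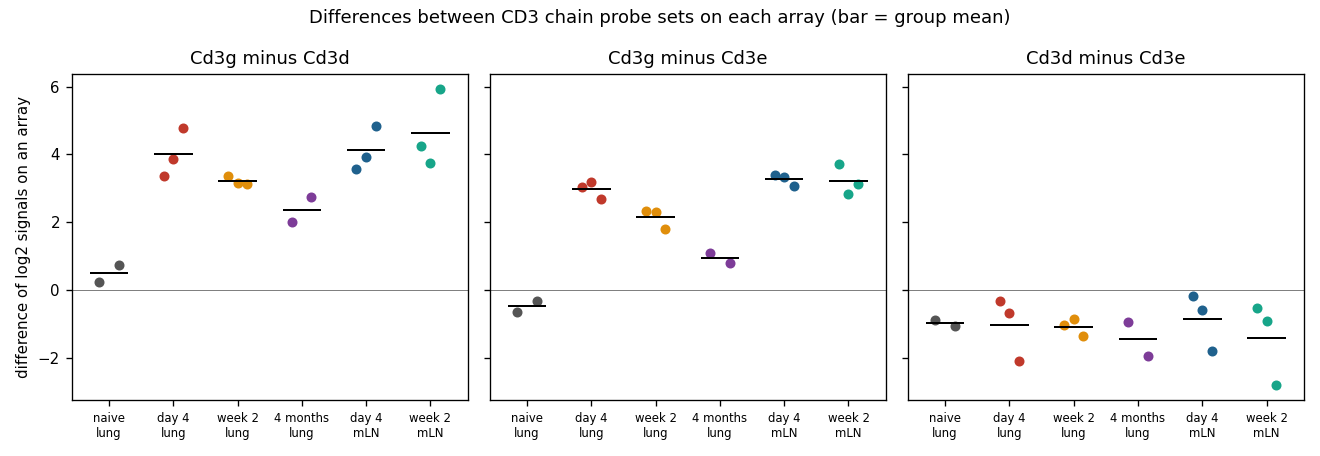
Differences between the log2 signals of the CD3 chain probe sets (vertical axis) on each array, by group (horizontal axis), with dots for arrays and bars for group means. Cd3g minus Cd3d and Cd3g minus Cd3e are lowest on the 2 naive arrays, at 0.24 and 0.74 and at -0.66 and -0.31, whereas the naive values of Cd3d minus Cd3e lie within the range of the other arrays.

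The genes of the 3 chains lie together on chromosome 9. In the RefSeq promoter table (GRCm38.p6), Cd3g and Cd3d are transcribed away from each other from start sites 1355 bases apart, and the start of Cd3e lies 27825 bases from that of Cd3d. Entries were found for 6 of the 10 listed genes. The promoters of the 3 neighbouring chains are shown because Cd3d and Cd3e changed against naive lung at day 4 and Cd3g did not pass. Each runs 5′ to 3′ on the strand of its gene, from 250 bases before to 50 after the start site, at chr9:44980382-44980681 on the minus strand (Cd3g), chr9:44981536-44981835 on the plus strand (Cd3d) and chr9:45009562-45009861 on the minus strand (Cd3e). Capitals mark the Ets core AGGAAG and the E-box CACCTG, each on either strand.
Cd3g: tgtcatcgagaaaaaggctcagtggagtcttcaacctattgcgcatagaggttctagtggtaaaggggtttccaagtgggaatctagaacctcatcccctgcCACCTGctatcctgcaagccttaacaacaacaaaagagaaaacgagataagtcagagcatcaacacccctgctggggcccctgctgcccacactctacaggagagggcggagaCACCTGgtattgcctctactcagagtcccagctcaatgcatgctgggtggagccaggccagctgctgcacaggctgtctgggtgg
Cd3d: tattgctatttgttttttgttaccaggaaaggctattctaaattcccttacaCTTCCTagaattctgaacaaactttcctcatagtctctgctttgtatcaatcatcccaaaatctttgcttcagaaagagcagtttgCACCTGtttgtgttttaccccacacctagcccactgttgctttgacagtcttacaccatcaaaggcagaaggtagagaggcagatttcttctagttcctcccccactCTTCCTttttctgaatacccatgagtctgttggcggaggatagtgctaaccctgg
Cd3e: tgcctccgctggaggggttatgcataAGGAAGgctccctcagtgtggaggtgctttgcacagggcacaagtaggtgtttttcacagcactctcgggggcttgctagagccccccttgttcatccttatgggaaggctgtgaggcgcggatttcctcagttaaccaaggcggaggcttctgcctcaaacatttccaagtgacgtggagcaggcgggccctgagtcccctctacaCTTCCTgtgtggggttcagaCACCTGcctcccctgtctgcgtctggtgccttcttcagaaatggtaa
The letters AGGAAG, which fit the core bound by Ets factors, occur at 2 places in the Cd3d window, at 2 in the Cd3e window and at 0 in the Cd3g window. They occur in 35.35% of 32851 mouse promoters of the same length. Of the other members with an entry, Cd8a, called lower at day 4, has 0 such places. Cd5, not called at day 4, has 2, and Cd247, not measured, has 2. The E-box CACCTG, of the kind bound by E proteins, occurs at 1 place in Cd3d, 1 in Cd3e and 2 in Cd3g, and in 20.21% of all promoters. The Gata letters AGATAA occur at 1 place in Cd3g and at 0 in the other two (11.18% of all promoters), and CTTTGA, the Tcf and Lef core, at 2 places in Cd3d and at 0 in Cd3e and Cd3g (16% of all). The Runx letters TGTGGT occur in none of the 3 windows (16.76% of all). Both strands were searched, and no match overlaps another in these windows. Such matches describe the letters of these windows and do not show binding.

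Of the other genes that the reference table lists around the CD3 genes, taken for their position after the values were seen, Kmt2a, Atp5l, Ube4a, Mpzl2, Mpzl3 and Scn2b were measured. At day 4 against naive lung, Mpzl3 was higher by 0.74 ± 0.23 (adjusted p = 0.0391), but its adjusted p was 0.124 under array weights. The other five ranged from -0.62 for Scn2b to 0.73 for Ube4a and did not pass. The size of change of Cd3d and Cd3e was thus not seen in these 6 neighbours.

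The CD8 co-receptor genes were also higher in naive lung. Cd8b1, the CD8 beta chain, had a log2 signal of 6.51 and 6.88 on the naive arrays. It was 3.66, 3.45 and 3.55 at day 4, 3.69, 4.07 and 3.89 at week 2, and 3.53 and 3.98 at 4 months in the lung. On the mLN arrays it was 3.65, 3.45 and 3.24 at day 4 and 3.20, 3.54 and 3.32 at week 2. All 14 arrays after IL-33 lay within less than 1 log2 unit of each other, far below the naive pair. Cd8b1 fell by 3.14 ± 0.20 at day 4 (8.84-fold, adjusted p = 1.18e-07), by 2.81 ± 0.20 at week 2 (adjusted p = 1.29e-06) and by 2.94 ± 0.22 at 4 months (adjusted p = 3.95e-06). The 4-month call of Cd8b1 was lost when only the 2 groups compared were fitted (adjusted p = 0.140).

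Cd8a, the CD8 alpha chain, differed between the 2 naive arrays, at 6.39 and 4.32. It was 3.86, 2.99 and 3.45 at day 4, 3.78, 3.16 and 3.87 at week 2, and 4.16 and 4.02 at 4 months in the lung. In the mLN it was 3.20, 3.29 and 3.49 at day 4 and 3.31, 3.60 and 3.97 at week 2. The second naive array was only slightly above the 4-month arrays. Cd8a fell by 1.92 ± 0.42 at day 4 (adjusted p = 0.00556) and by 1.75 ± 0.42 at week 2 (adjusted p = 0.0161), and its change of -1.27 ± 0.46 at 4 months did not pass (adjusted p = 0.166). Without naive replicate 1, the Cd8a changes were -0.89 at day 4 (adjusted p = 0.0905) and -0.72 at week 2 (adjusted p = 0.203). Without naive replicate 2, the Cd8a change at 4 months was -2.30 and passed (adjusted p = 0.0034).

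Cd4 was low throughout, between 2.73 and 3.99 on all 16 arrays. The naive arrays gave 3.96 and 3.49 and the day 4 lung arrays 3.03, 2.73 and 2.79, and the week 2 lung arrays (3.03, 3.25 and 3.12) were below the naive arrays too. The 4-month lung arrays (3.99 and 3.14) and the week 2 mLN arrays (3.78, 3.31 and 2.95) overlapped the naive pair. Cd4 fell by 0.87 ± 0.27 at day 4 (adjusted p = 0.0376), a call that was lost in 10 of 25 alternative settings, among them array weights (adjusted p = 0.118) and the fit without naive replicate 1 (-0.64, adjusted p = 0.228). Its changes of -0.59 at week 2 (adjusted p = 0.182) and -0.17 at 4 months (adjusted p = 0.828) did not pass.

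Among the other surface genes, Cd7 showed the largest change at day 4 and week 2 and a wide spread in naive lung. Cd7, an immunoglobulin superfamily protein of T and natural killer cells, had a log2 signal of 6.34 and 8.71 on the naive arrays. It was 4.27, 3.99 and 3.76 at day 4, 3.57, 3.22 and 4.49 at week 2, and 4.73 and 5.93 at 4 months in the lung. The mLN values were 4.93, 4.76 and 4.28 at day 4 and 5.12, 5.30 and 4.21 at week 2. The lower naive array was still above every treated array, by less than 1 log2 unit from the higher 4-month array. Cd7 fell by 3.52 ± 0.54 at day 4 (adjusted p = 4.62e-04) and by 3.77 ± 0.54 at week 2 (adjusted p = 6.75e-04). Its change of -2.19 ± 0.59 at 4 months did not pass (adjusted p = 0.0662). The size depended on the naive array used: for Cd7 at day 4, the change was -4.71 without naive replicate 1 and -2.34 without naive replicate 2, and both passed. At 4 months the Cd7 change was -3.38 without naive replicate 1, which passed (adjusted p = 0.00245), and -1.01 without naive replicate 2.

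Cd2, the receptor for CD48 in mice, had a log2 signal of 7.68 and 8.20 on the naive arrays. It was 6.66, 6.17 and 5.38 at day 4, 5.33, 5.20 and 5.83 at week 2, and 6.42 and 4.54 at 4 months in the lung. On the mLN arrays it was 6.15, 5.88 and 5.84 at day 4 and 5.51, 5.21 and 5.34 at week 2. Treated arrays were all below the naive pair, and in the mLN the week 2 arrays were below the day 4 arrays. The 4-month arrays spanned most of the treated range. Cd2 fell by 1.87 ± 0.42 at day 4 (3.66-fold, adjusted p = 0.00639), by 2.49 ± 0.42 at week 2 (adjusted p = 0.00193) and by 2.46 ± 0.46 at 4 months (adjusted p = 0.0123).

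Cd5, a surface protein that restrains antigen receptor signalling, lay at 5.66 and 4.97 in naive lung, and the other 14 arrays ran from 3.98 to 5.33. Its changes against naive lung were -0.53 ± 0.28 at day 4 (adjusted p = 0.204), -0.68 at week 2 (adjusted p = 0.135) and -0.33 at 4 months (adjusted p = 0.629), and none passed.

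**Figure D3:**
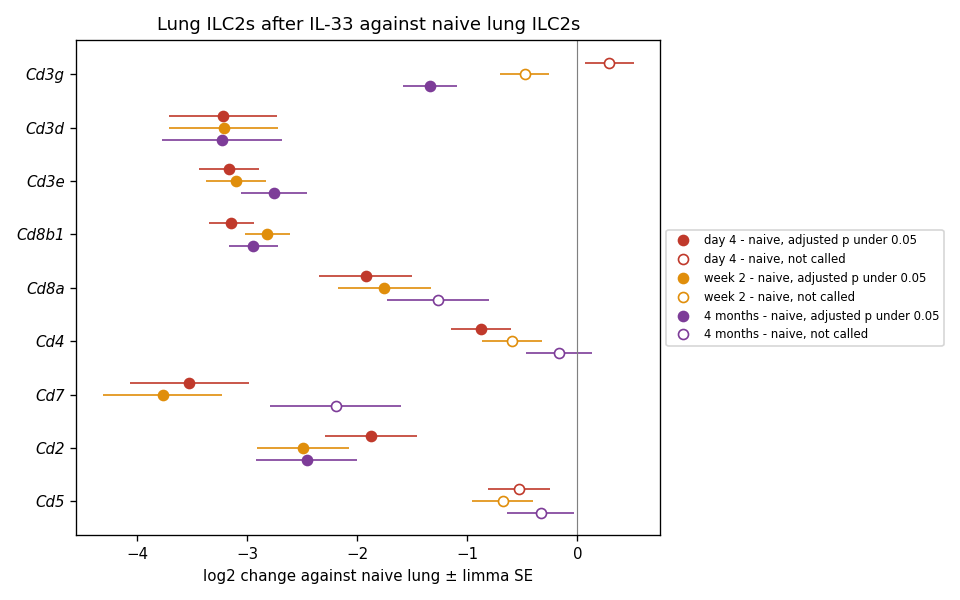
Log2 change of each gene against naive lung ILC2s (horizontal axis) with limma's standard error, at day 4, week 2 and 4 months after IL-33 in the lung. Filled points passed an adjusted p under 0.05 and open points did not. Cd3d, Cd3e and Cd8b1 lie between -3.23 and -2.76 at all 3 times, whereas Cd3g lies at 0.29, -0.48 and -1.34.

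Among the lung groups after IL-33, Cd3g was the only gene of the list called by limma, and genes not called are not shown to be unchanged. In the comparisons with 4 months, 1 call among 9 is a smaller share than that called among all genes. Cd3g also had the highest signal of the 9 on each of these lung arrays. Signals of different probe sets cannot be compared in absolute terms, so this does not rank the transcripts by amount. From day 4 to 4 months Cd3g fell by 1.63 ± 0.22, or 3.10-fold, in limma (adjusted p = 1.23e-04). It was the only one of the 9 called, with 25.6% of all genes called and 16.6% called lower. This call passed in all 26 alternative settings, with changes from -1.88 to -1.04 and adjusted p between 3.27e-05 and 0.0105. Genes of a similar signal also tended to be lower in that comparison: the 502 genes within 0.5 log2 units of the mean of Cd3g in the mLN had a median change of -0.60, with quartiles of -0.93 and -0.28. Their part in the change of Cd3g was not tested. From week 2 to 4 months Cd3g fell by 0.86 ± 0.22 (adjusted p = 0.0171), again the only one of the 9, with 16.4% of all genes called and 11.5% called lower. Genes of similar signal had a median change of -0.54 there, and the Cd3g call passed in 18 of 26 alternatives. It was lost with array weights (adjusted p = 0.0590), with quantile normalization repeated (-0.34, adjusted p = 0.355) and for Cd3g without 4-month replicate 1 (-0.62, adjusted p = 0.214).

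From day 4 to week 2 in the lung 0 of the 9 genes were called by limma (1.81% of all genes), and 1 of them had an unadjusted p under 0.05. That gene was Cd3g, whose change was -0.77 ± 0.20 (adjusted p = 0.0655) with the 3 week 2 arrays below the 3 day 4 arrays. It passed in 8 of 26 alternatives, array weights among them (adjusted p = 0.00501). Cd3e, at 0.41 ± 0.27 (adjusted p = 0.279), did not pass between day 4 and 4 months. Cd7 was at 1.33 ± 0.54 (adjusted p = 0.0812) from day 4 and at 1.57 ± 0.54 (adjusted p = 0.0572) from week 2 to 4 months, neither of which passed.

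Between mLN and lung, 0 of the 9 genes were called at day 4 (2.33% of all genes, and 0 of the 9 with an unadjusted p under 0.05) and 0 at week 2 (0.78% of all genes, and 3 of the 9 with an unadjusted p under 0.05). With array weights 0 were called at day 4 and 1, Cd3g, at week 2. Between the mLN groups, week 2 against day 4, 0 were called in either fit (1.71% of all genes, and 0 of the 9 with an unadjusted p under 0.05). Cd3g at week 2 was 0.82 ± 0.20 higher on average in the mLN than in the lung (adjusted p = 0.0757), and its 3 mLN arrays lay above its 3 lung arrays. The same difference had an adjusted p of 0.00555 with array weights. The week 2 change of Cd3g differed between mLN and lung by 0.98 ± 0.28 (adjusted p = 0.275), and 0 of the 9 genes were called for this difference (0.18% of all genes, and 1 of the 9 with an unadjusted p under 0.05). At day 4 the Cd3g difference was -0.17 ± 0.20 (adjusted p = 0.928). Cd8b1 at week 2 was -0.53 ± 0.18 (adjusted p = 0.298) and Cd7 was 1.12 ± 0.49 (adjusted p = 0.465), and neither passed. The mean of 12 macrophage markers was 3.51 to 3.88 on the mLN arrays and 4.00 to 6.12 on the day 4 and week 2 lung arrays. Its part in these differences was not tested.

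In the order of its group means, Cd3g ran from 9.03 ± 0.13 (SD, n = 3) in week 2 mLN through 8.98 ± 0.07 in day 4 lung, 8.82 ± 0.18 in day 4 mLN, 8.69 ± 0.51 (n = 2) in naive lung and 8.21 ± 0.19 in week 2 lung to 7.35 ± 0.35 (n = 2) in 4-month lung. Only the last pair of neighbours in this order had arrays that did not overlap. For Cd3d and Cd3e, only naive lung and the group next to it did not overlap.

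The genes that carry the signal from CD3 into the cell were called in both directions at day 4 and week 2. Of 30 measured genes of T cell receptor signalling, 4 were higher and 3 lower at day 4 against naive lung, 3 higher and 2 lower at week 2, and 0 higher and 3 lower at 4 months. Over all genes, 16.6%, 9.62% and 1.97% were called in these comparisons. The median change of the 30 genes was 0.17, 0.27 and -0.37, and over all genes it was -0.06, -0.04 and -0.02. Themis, a protein needed for T cell selection in the thymus, fell by 2.23 ± 0.31 at day 4 (adjusted p = 2.12e-04), by 2.02 at week 2 and by 2.02 at 4 months. Sit1, an inhibitory transmembrane adaptor, fell by 1.46 ± 0.38 at day 4 (adjusted p = 0.0159). Zap70, the kinase that binds the phosphorylated CD3 tails, rose by 1.33 ± 0.31 at day 4 (adjusted p = 0.00757), and Bcl10, which links the receptor to NF-kappaB, rose by 1.38 (adjusted p = 4.19e-04). Txk, a Tec family kinase, fell by 1.44 ± 0.21 at week 2 and by 1.75 ± 0.22 at 4 months. The adaptor Lat, which was named for its place next to Zap70 after its values were seen, changed by -0.16 ± 0.29 at day 4 and did not pass.

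From day 4 to 4 months in the lung, 1 of these 30 genes was higher and 14 were lower, where 25.6% of all genes were called and 16.6% were called lower. Their median change was -0.58, against 0.04 over all genes and -0.60 over the 502 genes with a signal like that of Cd3g. From week 2 to 4 months, 0 were higher and 10 lower, where 16.4% of all genes were called and 11.5% called lower. Their median change was -0.56, against 0.02 over all genes and -0.54 over the same 502 genes. In the first of these comparisons Sla, an adaptor that limits receptor signalling, fell by 1.75, Zap70 fell by 1.73 ± 0.31 and Nfatc1, a calcium-regulated transcription factor, fell by 1.63, while the kinase Prkcq rose by 1.19. Zap70 had a log2 signal of 7.80, 7.70 and 7.64 at day 4 and of 5.22 and 6.75 at 4 months, so its 4-month arrays differed widely. When the arrays were centred on their medians, the median of all genes moved from 0.04 to -0.10 for day 4 to 4 months and from 0.02 to -0.10 for week 2 to 4 months. Between mLN and lung, Txk at week 2 was higher in the mLN by 1.66 ± 0.18 (adjusted p = 1.80e-04), the only call among the 30 (0.78% of all genes called). At day 4, 3 of the 30 were higher and 1 lower in the mLN (2.33% of all genes called), with Trat1, an adaptor found with the receptor complex, higher by 1.23 and Prkcq by 1.09.

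Of 26 other T cell surface genes, 10 were higher and 3 lower at day 4 against naive lung, 2 higher and 3 lower at week 2, and 0 higher and 1 lower at 4 months, where 16.6%, 9.62% and 1.97% of all genes were called. Their median change was 0.30, 0.15 and -0.08. At day 4 the inhibitory receptor genes Tigit and Ctla4 rose by 3.40 ± 0.27 (adjusted p = 1.45e-06) and 2.47 ± 0.39 (adjusted p = 5.85e-04), and Slamf7 and Cd48, which encode members of the SLAM family, rose by 1.63 and 1.58. Slamf6, of the same family, fell by 1.91 at week 2 and by 1.67 at 4 months. From day 4 to 4 months, 1 of the 26 was higher and 9 were lower, where 25.6% of all genes were called. In the mLN at day 4, 1 was higher and 7 were lower than in the lung (2.33% of all genes called), among them Ctla4 (-2.63), Tigit (-2.28), Pdcd1 (-1.92) and Lag3 (-1.86), all receptors that restrain T cells.

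Receptors of other lymphocytes and of myeloid cells signal through ITAM adaptors of their own. Of 8 measured genes of this kind, 1 was higher and 0 lower at day 4 against naive lung, and 0 of the 8 were called at week 2 and at 4 months by limma (16.6%, 9.62% and 1.97% of all genes called). The one called was Fcgr3, an Fc receptor chain, which rose by 1.33 ± 0.28 (adjusted p = 0.00449). Fcer1g, the common gamma chain of Fc receptors, was lower in the mLN than in the lung at day 4 by 3.20 ± 0.69 in limma (adjusted p = 0.0165). Its day 4 lung arrays differed widely, at 8.39, 7.96 and 5.44, against 3.88, 4.20 and 4.11 in the mLN. Macrophage marker means were 6.02, 6.12 and 4.58 on the same lung arrays and 3.51 to 3.88 on the mLN arrays. The part of these markers in that difference was not tested.

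Among 19 transcription factors and regulators of the T lineage, 3 were higher and 4 lower at day 4 against naive lung, 1 higher and 3 lower at week 2, and 0 higher and 3 lower at 4 months. Over all genes, 16.6%, 9.62% and 1.97% were called, and 5.73%, 2.87% and 1.25% were called lower. Satb1, a chromatin organiser of T cells, fell by 1.57, 1.58 and 1.60 at the 3 times. The limit of array weights at 4 months applies to the genes of this paragraph too. Lef1, a partner of beta-catenin in thymocytes, fell by 1.49 at week 2 and by 1.78 at 4 months. Tox rose by 1.00 and Ikzf3 by 1.07 at day 4. Gata3 changed by -0.19 ± 0.22 (adjusted p = 0.586). Of 9 genes of early T cell development, 0 were higher and 3 lower at day 4 and at week 2, and 0 higher and 1 lower at 4 months. Cd24a, a surface protein of immature lymphocytes, fell by 1.65 at day 4, by 2.85 at week 2 and by 1.88 at 4 months.

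Markers of T cells and cytotoxic cells were counted in the comparisons against naive lung, where 5.73% of all genes were called lower at day 4, 2.87% at week 2 and 1.25% at 4 months. Of the antigen receptor genes, 8 variable segments were measured (Trav12-2, Trav14d-3-dv8, Trav3-4, Trav7-4, Trav9d-3, Trbv13-2, Trgv5 and Trgv6), and the constant regions were not analysed here. Against naive lung, 0 were higher and 6 lower at day 4, 0 higher and 4 lower at week 2, and 0 higher and 1 lower at 4 months, with median changes of -1.30, -0.95 and -0.11. Trav9d-3 fell by 1.79 ± 0.41 at day 4 (adjusted p = 0.00697). Trbv13-2 fell by 1.51 at day 4, fell by 2.21 at week 2 and fell by 2.52 at 4 months. The mean of the 8 genes was 5.44 and 5.77 on the naive arrays. It was 4.28 to 4.67 at day 4, 4.50 to 4.80 at week 2 and 5.15 to 5.22 at 4 months in the lung, and 4.22 to 4.87 in the mLN. The 4-month arrays thus lay between the naive and the other lung arrays. Of the 8 genes, 4 were higher and 0 lower at 4 months than at day 4. In that comparison 25.6% of all genes were called in either direction, 16.6% lower and the remainder higher. Trav7-4 was up by 1.89 in that comparison (adjusted p = 2.83e-04). Variable segments belong to families of near-identical copies, so a probe set may read more than the gene it is named for.

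Of 11 markers of naive or recirculating T cells, 0 were higher and 6 lower at day 4 and at week 2, and 0 higher and 3 lower at 4 months, against 5.73%, 2.87% and 1.25% of all genes called lower. S1pr1, the receptor for exit from tissues, fell by 0.92 at day 4, by 1.75 at week 2 and by 1.82 at 4 months, and Klf2, its activator, fell by 1.55 at day 4. Their mean over the list was 6.57 to 6.58 on the naive arrays and 5.76 to 5.99 on the other lung arrays. Of 12 cytotoxic and NK cell markers, 0 were higher and 4 lower at day 4, 0 higher and 3 lower at week 2, and 0 higher and 3 lower at 4 months, with median changes of -0.51, -0.54 and 0.07. Klrd1, the CD94 chain of NK cell receptors, had a log2 signal of 7.35 and 7.10 in naive lung, and the other 14 arrays ran from 2.19 to 4.70. It fell by 4.35 ± 0.38 at day 4 (adjusted p = 3.66e-06), by 4.00 at week 2 and by 3.27 at 4 months. The mean of the 12 was 5.17 to 5.34 in naive lung, 4.33 to 4.57 at day 4, 4.28 to 4.59 at week 2, 4.72 to 5.03 at 4 months and 4.02 to 4.41 in the mLN. The part of T cells or cytotoxic cells in the signals of Cd3d, Cd3e, Cd8a, Cd8b1, Cd7 and Cd2 was not tested. On this log2 scale no marker is listed at 0.

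Markers of B cells, dendritic cells and macrophages were counted in the same comparisons. Over all genes, 16.6% were called at day 4, 9.62% at week 2 and 1.97% at 4 months, and 5.73%, 2.87% and 1.25% were called lower. Of 8 B cell markers, 1 was lower at day 4 and 0 were called at week 2 and 4 months. Of 6 dendritic cell markers, 1 was higher and 1 lower at day 4, and 1 was lower at week 2. Of 12 macrophage markers, 3 were higher at day 4 (Chil3, Ctsk and Mrc1) and 0 were called at week 2 and at 4 months. The day 4 lung arrays differed widely, from 9.19 to 11.43 for Chil3, from 4.91 to 7.74 for Ctsk and from 3.93 to 6.52 for Mrc1. The macrophage mean was 4.02 to 4.92 in naive lung, 4.58 to 6.12 at day 4, 4.00 to 5.50 at week 2 and 4.34 to 4.83 at 4 months in the lung. Of the 12 ILC2 markers, 4 were higher and 1 lower at day 4, 2 higher and 0 lower at week 2, and 1 higher and 0 lower at 4 months. At day 4 in limma, Il13 was up by 1.28 ± 0.24 (adjusted p = 0.00225), Il5 by 1.10 ± 0.22 (adjusted p = 0.00279) and Klrg1 by 0.87. Il17rb had group means of 7.71 in naive lung and 9.66 at day 4. Il2ra went the other way, with group means of 9.40 in naive lung and 8.54 at day 4.

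**Figure D4:**
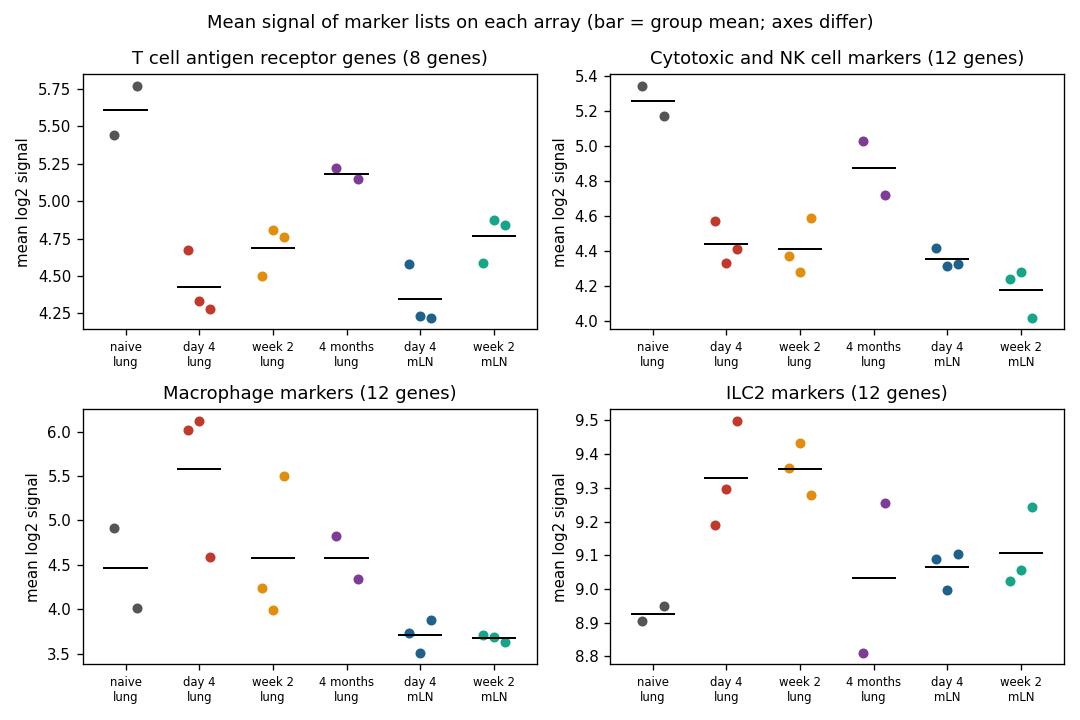
Mean log2 signal (vertical axis, which differs between panels) of 4 marker lists on each of the 16 arrays, by group (horizontal axis), with bars for group means. The 2 naive arrays are highest for antigen receptor genes, at 5.44 and 5.77, and for cytotoxic and NK cell markers, at 5.34 and 5.17,, while their ILC2 marker means lie at 8.90 and 8.95.

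Across the 16 arrays, which share the 6 groups, the signals of Cd3d and Cd3e had a Pearson correlation of 0.84, and those of Cd3e and Cd8b1 one of 0.96. Without the 2 naive arrays these were -0.04 and 0.55 over 14 arrays. Cd3g had correlations of -0.02 with Cd3d and -0.06 with Cd3e over 16 arrays. Among 9831 genes with a highest group mean at or above the 60th percentile of all values, the genes most like Cd3e were Dusp2 (r = 0.93), Mir92b (0.90), Klrd1 (0.90), Gramd3 (0.89), Cyb5d2 (0.88) and Prrt4 (0.88), whose group means were highest in naive lung. Those most like Cd3g were Hax1 (0.93), Timm44 (0.93), Commd6 (0.91), Usp38 (0.91), Use1 (0.91) and Ndufb9 (0.91), whose group means were lowest at 4 months. These correlations describe 16 arrays whose signal ranges differ between groups.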

How the data were processed

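Total RNA of ILC2s was measured on 16 single-colour arrays. The authors deposited 1 log2 signal per probe set and array. Per the submitters' processing notes, Affymetrix Expression Console and RMA were used, and extraction and labelling used Trizol and a Nugen Encore biotin kit, per the labels' protocols. No version or genome build is given in the sources used here. RMA gives all arrays a common distribution of probe signals, which hides any change in the total RNA of a cell. No scanner files were used here, so detection above background was not assessed, and the number of arrays limits the precision. The arrays are labelled as biological replicates, with no word on single or pooled animals, so p-values measure the spread between these samples.

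Of 41345 probe sets, 23521 have 1 gene symbol in the probe annotation, 1814 several and 16010 none. Genes were named from the first kind, by the probe set with the highest mean for the 1082 genes with several, which left 22180 genes with no filter on low values. All 9 measured members had the Entrez identifier of the reference gene table. Group means were fitted to all 16 arrays with limma 3.58.1 in R 4.3.3 (10 residual and 6.52 prior degrees of freedom), and p-values were adjusted by Benjamini-Hochberg over all genes and called under 0.05. Changes are differences of group means ± limma's standard error. Tests are two-sided. Differences between CD3 chains were tested by exact permutation of arrays. No set test was run: lists are given by counts and medians. The procedure was tested on simulated data. Matplotlib 3.10.9 under Python 3.11.15 drew the figures.

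The members and lists were chosen with earlier results of these data known. The members are named in every comparison against naive lung; from each list, up to 4 called genes with the largest change are named per comparison, and from the ILC2 list Gata3, Rora, Il13, Il5, Klrg1 and Thy1 may be named whether they pass or not. Genes most like Cd3e and Cd3g were the 6 with the highest correlation each, leaving out members and predicted genes. Themis, Lef1, Satb1, Foxp3, Cd27 and Icos lie in more than 1 list. Same-numbered arrays of different groups deviated from their group means with correlations of -0.10 to 0.18, over 0.1 in 2 of 18 pairs. Among the groups of 3 arrays, different-numbered arrays had correlations of -0.17 to 0.09. The replicate numbers were not taken to pair the samples in the main fit. These correlations do not exclude an effect shared by same-numbered arrays, and the labels do not say whether the numbers mark a shared batch. Both pairs over 0.1 were of replicate 3, which also had the lowest Cd3d and the lowest Cd3d minus Cd3e in each group of 3 arrays. No 2 arrays held identical values.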

Additional observations from a re-analysis of the deposited data

Results flagged for a closer look

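The difference of Cd3g between day 4 and week 2 had opposite signs in the lung and in the mLN, and neither passed. All 3 week 2 lung arrays were below the day 4 lung mean, and all 3 week 2 mLN arrays were above the day 4 mLN mean. The change was -0.77 ± 0.20 (limma SE) in the lung (adjusted p = 0.0655) and 0.21 ± 0.20 in the mLN (adjusted p = 0.910) on the log2 scale, and the arrays of the 2 mLN groups overlapped. The difference between these changes, tested as an interaction in limma, was 0.98 ± 0.28 and did not pass (adjusted p = 0.275), while 0.18% of all genes were called for this difference. With array weights it was 1.00 ± 0.22 and passed (adjusted p = 0.0423), the only one of 26 alternative settings in which it did.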

How the results depend on the processing

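The calls of Cd3d, Cd3e, Cd8b1 and Cd7 against naive lung at day 4 and week 2 passed in all 26 alternative settings, and no value changed sign in a comparison in which its gene was called. Of 2330 values of single genes under an alternative, 31 passed only there and 36 no longer passed. At 4 months against naive lung, 5 genes were called, against 2 with array weights and 0 when only the groups compared were fitted. For week 2 against day 4 in the lung, 0 were called, against 1 (Cd3g) without dim genes, with trend and robust options, with array weights and with only the groups compared. For 4 months against day 4, 1 was called, against 2 with quantile normalization repeated and with only the groups compared. For 4 months against week 2, 1 was called, against 2 without dim genes and 0 with quantile normalization repeated, array weights, only the groups compared, a log2 change of at least 1, or the lung arrays highest in macrophage markers left out (day 4 replicates 1 and 2 and week 2 replicate 3, chosen after seeing the data). For mLN against lung at week 2, 0 were called, against 1 with quantile normalization repeated, trend and robust options, array weights and only the groups compared. For the difference of the week 2 changes between mLN and lung, 0 were called, against 1 with array weights. The cause was not tested.

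Leaving out each array in turn gave 5 to 7 calls at day 4, 5 to 6 at week 2 and 4 to 6 at 4 months against naive lung, 0 to 1 for week 2 against day 4, 1 to 2 for 4 months against day 4, 0 to 2 for 4 months against week 2, 0 to 1 for mLN against lung at week 2, and 0 in the other comparisons. Where an arm was left with 1 array, that array is assumed to vary like the other groups. The naive deficit of Cd3g minus Cd3d ran from -3.06 to -2.56, of Cd3g minus Cd3e from -2.83 to -2.46 and of Cd3g minus their mean from -2.93 to -2.51. The exact permutation p was then 0.0278 to 0.111, which with 1 naive array is the smallest possible. With the replicate number as a block, 6 genes in place of 7 were called at day 4 against naive lung, the call of Cd4 being lost (adjusted p = 0.0523), and the other counts were unchanged at 6, 5, 0, 1, 1, 0, 0, 0 and 0. With array weights the calls over all genes went from 3677 to 1627 at day 4, from 2134 to 728 at week 2 and from 436 to 4 at 4 months against naive lung. They went from 401 to 1409 for week 2 against day 4, from 5678 to 2900 and from 3633 to 1196 for 4 months against day 4 and week 2, from 379 to 629 within the mLN, from 517 to 939 and from 173 to 692 for mLN against lung, and from 40 to 205 for the difference between them. Cd4 was left out with the dim genes.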
